A study of Homo sapiens with 4 samples.

Results

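The genes described here are 38 regulators of mitotic entry, spindle assembly, centriole duplication and cytokinesis, measured in MiaPaCa2 cells, an established human pancreatic ductal adenocarcinoma line. They were chosen by function, leaving out kinesins and kinetochore genes, with earlier results of these data already known. All 38 were measured among 18417 genes on Human Gene 1.0 ST arrays. Each gene was represented by its brightest probe set that carried a single gene symbol. RNA came from cultures given vehicle (2 arrays) or LY101-4B at 50 µM (2 arrays), both for 24 h. The series calls LY101-4B an inhibitor of E2F, the transcription factor family that drives entry into S phase. It calls the samples of a group biological replicates. The protocol text of the same samples names LY101-4D at 25 µM instead, and the titles, agent labels and design text were followed.

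Mitotic entry is set by the kinase CDK1 with cyclin B. WEE1 and PKMYT1 hold CDK1 inactive by phosphorylation and the CDC25 phosphatases release it, while polo-like and Aurora kinases drive centrosome maturation and spindle assembly. Anaphase then needs separase, and a central spindle, the small GTPase RhoA and a contractile ring divide the cell. Transcripts of many of these genes peak in G2 and mitosis, through promoters bound by the MuvB core complex with B-MYB and FOXM1, and by the CCAAT-binding factor NF-Y.

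Expression is given as log2 values processed by RMA, a procedure that corrects background, makes array distributions alike and summarises probes, so differences are relative to the bulk of genes. The 4 array medians lay between 5.88 and 5.97. The SD of the difference between replicates, over probe sets with a gene symbol, was 0.164 in the vehicle pair and 0.223 in the LY101-4B pair. Of the markers listed for the line, KRT8, KRT18 and VIM read 11.86 or above on every array (KRT8 and KRT18 were themselves called lower). KRT19 read 9.06 to 9.28. The epithelial genes EPCAM (3.77 to 4.12) and CDH1 (4.63 or below) were low. Of 16 markers of leukocytes, endothelium, fibroblasts, acinar and islet cells, 14 were measured. Their summed log2 level was 75.7 to 76.0 on vehicle arrays and 75.8 on both LY101-4B arrays. The fibroblast collagen genes COL1A2 and COL3A1 were the 2 of them that were called. COL1A2 read 9.87 and 9.92 with vehicle and 10.40 and 10.33 with LY101-4B, while COL3A1 read 6.85 and 6.58 with vehicle and 6.09 and 6.25 with LY101-4B. These genes moved in opposite directions, so the level sum does not show them, and their part in the results was not tested.

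Of the 38 mitotic regulators, 35 fell with LY101-4B, 0 rose and 3 (NUMA1, CDC25C and BORA) did not pass, by limma at a Benjamini-Hochberg adjusted p under 0.05 over all gene-annotated probe sets. Over all measured genes, 10.7% fell and 8.88% rose. The median difference of the 38 genes was -0.90 log2 units, a 1.87-fold fall, against 0.00 over all genes. Differences (LY101-4B minus vehicle) ran from -1.99 for ANLN to -0.11 for BORA, and adjusted p of the 35 called genes from 0.00076 to 0.026. At least 2-fold falls were called for 15 of the 38, compared with 1.68% of all genes. Because the list was drawn up with earlier results known, these comparisons with all genes are descriptive. In RNA from whole cultures, fewer cells in mitosis and less RNA per cell cannot be told apart.

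The separate arrays gave the same direction. Both LY101-4B arrays lay below both vehicle arrays for 37 of the 38 genes, and for 29.7% of all genes. For the same number of members, 37, the gap between the groups was wider than the gap within either replicate pair, which held for 17.2% of all genes. Against the vehicle mean, the median of the members was -0.95 on LY101-4B replicate 1 and -0.89 on replicate 2. LY101-4B replicate 1 was the lower of its pair for 32 members (84.2%), where 58.3% of all genes had that order. Vehicle replicate 1 was the lower of its pair for 27 members (71.1%), against 49.6% of all genes. Without LY101-4B replicate 1, 34 members were still called lower. The count was 35 without LY101-4B replicate 2, 30 without vehicle replicate 1 and 27 without vehicle replicate 2. With 3 arrays the residual variance rests on less data, namely on the replicate pair that is left whole. Without a vehicle array this is the LY101-4B pair, whose replicates differed more (SD 0.223, against 0.164 in the vehicle pair). A gene can thus lose its call there at an unchanged or larger difference.

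**Figure D1:**
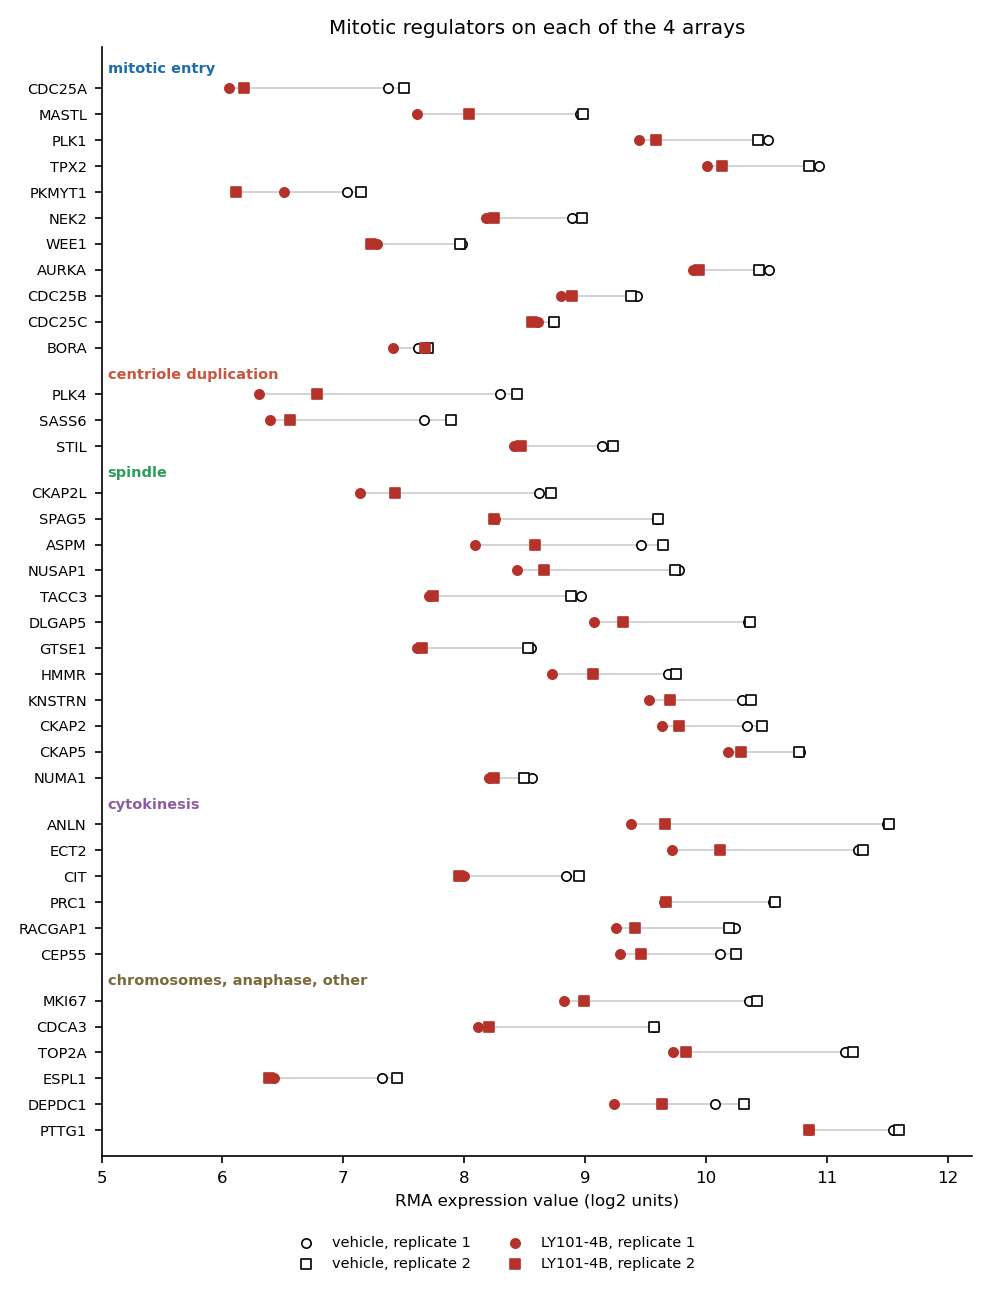
RMA log2 value (horizontal axis) of each of the 38 genes on the 2 vehicle arrays (open symbols) and the 2 LY101-4B arrays (filled symbols), grouped by role. The filled symbols lie left of the open ones for 37 genes, and the groups overlap for BORA alone.

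**Figure D2:**
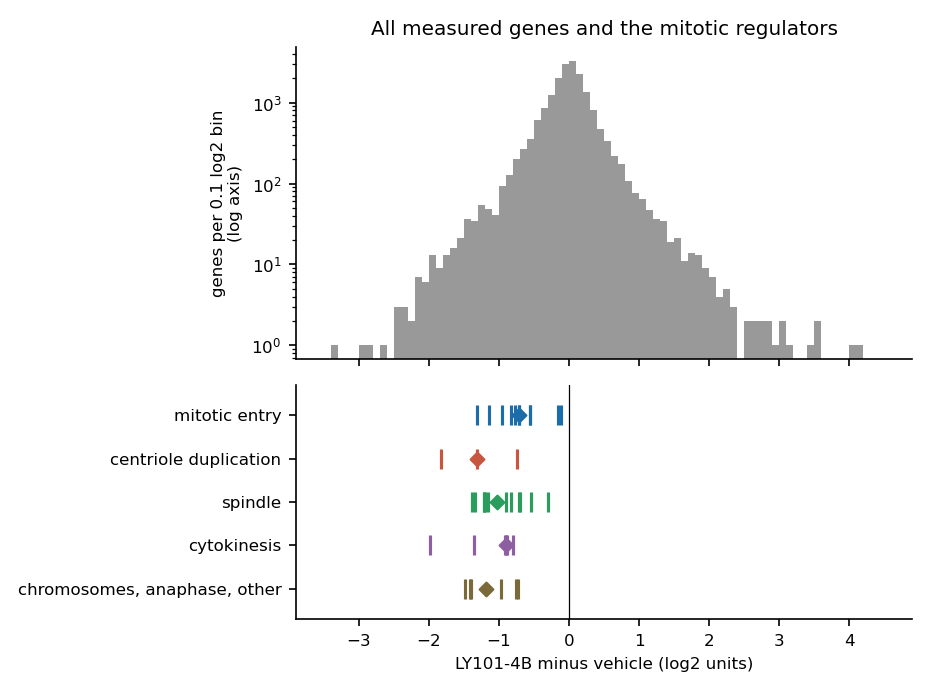
Top, number of genes per bin of LY101-4B minus vehicle (log2 units) for all 18417 genes, on a log count axis. Bottom, the 38 members by role on the same scale (ticks) with the median of each role (diamonds), which runs from -0.72 for mitotic entry to -1.31 for centriole duplication.

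Promoters of the members were examined next. Many genes of this kind are known to have promoters bound by MuvB and NF-Y, as stated above. The shares below therefore describe a list chosen by function. A link between motifs and the falls was not tested. RefSeq promoter windows (GRCh38.p14) of 300 bases, from 250 before to 50 after a transcription start, matched 33 of the 38 genes by symbol. No window was used for AURKA, RACGAP1, TPX2, PKMYT1 or WEE1. Windows were searched on both strands for the cell cycle genes homology region (CHR, TTTGAA), which the MuvB complexes bind, for the CCAAT box (CCAAT), which NF-Y binds, and for E2F sites spelled TTTCCCGC, TTTGGCGC, TTTGCCGC or TTTCGCGC. Matches to different motifs may overlap, as they do in MKI67. The CHR letters stood in at least 1 window of 23 of the 33 members (69.7%), compared with 15.7% of the 14239 measured genes with a window and 15.2% of all windows of this length. CCAAT stood in 26 members (78.8%), 42.2% of measured genes and 34.6% of all windows. The E2F spellings stood in 4 members, CDC25A, STIL, SASS6 and NUSAP1 (12.1%), in 5.51% of measured genes and in 3.31% of all windows. These spellings are exact runs of 8 letters, against 6 for the CHR and 5 for CCAAT. E2F sites spelled otherwise were not counted, so a member without a match may still hold one. Members tended to hold the CHR letters close to the start: 20 of the 33 (60.6%) had them within 50 bases of a start on either side, where 4.74% of measured genes did. This distance was chosen after the positions were seen.

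The bases just upstream of the start are shown for members at both ends of the range of differences and for members of kinase, phosphatase and other families described below. They are written 5′ to 3′ on the gene's strand and end at the base before the start. Capitals mark matches to any of the 3 motifs, on either strand.
ANLN, chr7:36389762-36389861, plus strand: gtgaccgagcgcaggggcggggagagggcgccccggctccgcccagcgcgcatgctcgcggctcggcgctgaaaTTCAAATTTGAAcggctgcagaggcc
MKI67, chr10:128126424-128126523, minus strand: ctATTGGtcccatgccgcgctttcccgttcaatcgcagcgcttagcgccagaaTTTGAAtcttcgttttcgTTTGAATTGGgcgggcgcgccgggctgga
PLK1, chr16:23678789-23678888, plus strand: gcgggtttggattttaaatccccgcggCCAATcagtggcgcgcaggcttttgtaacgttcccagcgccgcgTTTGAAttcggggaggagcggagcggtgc
CKAP2L, chr2:112764610-112764709, minus strand: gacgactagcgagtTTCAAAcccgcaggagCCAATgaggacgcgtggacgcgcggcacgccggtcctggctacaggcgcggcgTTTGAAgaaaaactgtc
NEK2, chr1:211675622-211675721, minus strand: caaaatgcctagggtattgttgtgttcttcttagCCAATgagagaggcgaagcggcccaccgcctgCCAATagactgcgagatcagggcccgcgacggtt
CDC25A, chr3:48188418-48188517, minus strand: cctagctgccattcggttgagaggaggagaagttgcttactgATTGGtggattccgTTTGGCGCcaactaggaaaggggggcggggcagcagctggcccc
TACC3, chr4:1720531-1720630, plus strand: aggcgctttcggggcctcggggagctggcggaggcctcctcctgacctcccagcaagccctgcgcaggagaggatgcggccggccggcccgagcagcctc
NUMA1, chr11:72080543-72080642, minus strand: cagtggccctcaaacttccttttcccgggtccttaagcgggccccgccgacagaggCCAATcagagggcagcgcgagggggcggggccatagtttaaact
BORA, chr13:72727723-72727922, plus strand: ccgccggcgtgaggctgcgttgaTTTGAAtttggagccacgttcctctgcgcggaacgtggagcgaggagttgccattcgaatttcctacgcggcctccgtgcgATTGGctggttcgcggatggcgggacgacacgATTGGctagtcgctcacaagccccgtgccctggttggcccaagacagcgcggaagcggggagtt
In ANLN, which had the largest fall, 2 CHR matches stood back to back on opposite strands at -26 to -21 and -20 to -15. The PLK1, MKI67 and CKAP2L stretches each held a CHR match within 50 bases of the start. They also held CCAAT letters, at -73 to -69 in PLK1, at -70 to -66 in CKAP2L and at -98 to -94 and -24 to -20 in MKI67. CDC25A had no CHR match and held the E2F spelling TTTGGCGC at -44 to -37. NEK2 and NUMA1 held CCAAT letters and no CHR match, and TACC3, which fell 2.30-fold, held none of the motifs anywhere in its window. BORA, which did not pass, held a CHR match far upstream, at -177 to -172, and 2 CCAAT matches.

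Falls were also set beside motif content. The median difference was -1.14 log2 units for the 23 members with a CHR match and -0.72 for the 10 without one, and -1.26 for the 4 with an E2F spelling against -0.92 for the other 29. For CCAAT the order was the opposite, with -0.91 for the 26 members that held it and -1.20 for the 7 that did not. Over the 14239 measured genes with a window, medians with and without the letters were -0.02 and 0.01 for the CHR. They were -0.07 and 0.00 for the E2F spellings, and -0.01 and 0.01 for CCAAT. Members with several motifs, such as the 19 with CHR and CCAAT but no E2F spelling, enter more than 1 comparison. None of these differences between medians was tested. Among the 1666 genes with a window that were called lower, called members included, 18.6% had the CHR letters, 10.6% an E2F spelling and 48.1% CCAAT. The corresponding shares were 13.5%, 4.69% and 47.3% of the 1321 genes called higher. Of the 11252 genes not called they were 15.6%, 4.84% and 40.7%, so the CCAAT share was higher among genes called in either direction. A match is a run of letters and shows no binding.

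**Figure D3:**
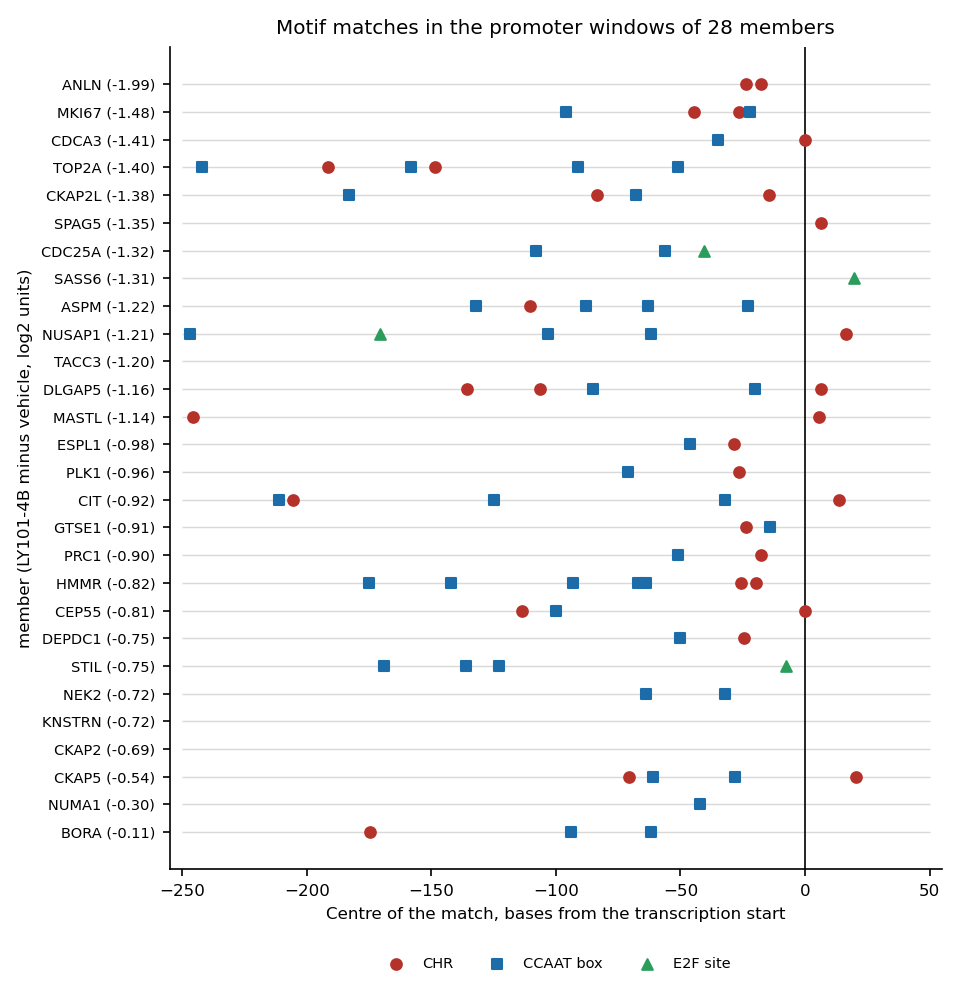
Centre of each motif match, in bases from the transcription start, for the 28 members with a single promoter window, ordered by LY101-4B minus vehicle (log2 units, in parentheses). Of the 31 CHR matches (circles) 20 lie within 50 bases of the start, as do 10 of the 44 CCAAT matches (squares), and the E2F spellings (triangles) are in 4 genes.

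Among the 11 kinases, phosphatases and activators of mitotic entry, 9 fell and 2 did not pass (median -0.72). CDC25A, the phosphatase that removes inhibitory phosphate from CDK2 and CDK1, read 7.37 and 7.50 log2 units on the vehicle arrays and 6.05 and 6.18 on the LY101-4B arrays. The groups stood 1.19 apart, and the fall was 2.50-fold (-1.32 ± 0.10 log2 units, SE; limma adjusted p 0.0012). MASTL, the Greatwall kinase that restrains the phosphatase PP2A-B55 in mitosis, read 8.96 and 8.98 with vehicle and 7.61 and 8.04 with LY101-4B. Its treated arrays were further apart than its vehicle arrays, and both lay below them (2.21-fold, limma adjusted p 0.0059). PLK1, which drives centrosome maturation and mitotic entry, read 10.52 and 10.43 with vehicle and 9.44 and 9.58 with LY101-4B. Replicates were close in both groups, and the fall was 1.94-fold (limma adjusted p 0.0026).

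TPX2, the microtubule-associated activator of Aurora A, read 10.93 and 10.85 with vehicle and 10.01 and 10.13 with LY101-4B, a 1.77-fold fall (limma adjusted p 0.0037). AURKA, which encodes Aurora A itself, went from 10.52 and 10.44 to 9.90 and 9.94 (1.48-fold, limma adjusted p 0.0096). The groups of AURKA did not overlap, but its call was lost without either vehicle array (limma adjusted p 0.0907 and 0.0585). BORA, the cofactor with which Aurora A activates PLK1, read 7.61 and 7.70 with vehicle and 7.41 and 7.68 with LY101-4B. Here the groups overlapped. The difference was -0.11 with a 95% interval from -0.40 to 0.18 (limma adjusted p 0.59), and its sign turned without LY101-4B replicate 1 (0.022).

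Both inhibitory kinases of CDK1 fell. WEE1 read 7.98 and 7.96 with vehicle and 7.28 and 7.23 with LY101-4B, with tight replicates in both groups (1.64-fold, limma adjusted p 0.0042). The 2 dimmer WEE1 probe sets also fell, by 0.63 and 0.77 log2 units (limma adjusted p 0.017 and 0.030). PKMYT1, the membrane-bound relative of WEE1, read 7.03 and 7.14 with vehicle and 6.51 and 6.11 with LY101-4B. Its treated arrays were the more spread pair, the fall was 1.71-fold (limma adjusted p 0.018), and the call was lost without vehicle replicate 1 (0.0586), without vehicle replicate 2 (0.0847) and over all rows of the table (0.0671). NEK2, a kinase of centrosome separation, fell 1.65-fold (limma adjusted p 0.0047).

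The 3 CDC25 genes gave 3 different values. CDC25B fell from 9.43 and 9.38 to 8.80 and 8.89 (1.47-fold, limma adjusted p 0.010), a call lost without either vehicle array (0.0882 and 0.0682). CDC25C read 8.74 on both vehicle arrays and 8.61 and 8.56 with LY101-4B. Its groups did not overlap, yet the difference of -0.15 (95% interval -0.36 to 0.06) did not pass (limma adjusted p 0.28). The interval of CDC25A, -1.56 to -1.07, lay below those of CDC25B (-0.78 to -0.34) and CDC25C. The differences between the paralogues were not tested. A CHR match stood at -30 to -25 in 1 of the CDC25C windows and at 44 to 49, past the start, in another. A CCAAT match was shifted by the same distance between these windows (-85 to -81 and -12 to -8). They thus appear to overlap and to show the same CHR letters from different starts. No CHR match stood in the windows of CDC25A or CDC25B, and the E2F spelling was in CDC25A.

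All 3 centriole duplication genes fell (median -1.31). PLK4, the master kinase of centriole duplication, read 8.29 and 8.43 log2 units with vehicle and 6.30 and 6.78 with LY101-4B. Although its treated replicates differed by 0.48, the groups stood 1.51 apart, and the fall of 3.54-fold (-1.82 ± 0.17, SE; limma adjusted p 0.0020) was second to that of ANLN among the 38. SASS6, which forms the cartwheel of the new centriole, read 7.67 and 7.89 with vehicle and 6.39 and 6.56 with LY101-4B (2.48-fold, limma adjusted p 0.0019). STIL, the PLK4 substrate that recruits SASS6, went from 9.14 and 9.23 to 8.41 and 8.47, a 1.68-fold fall (limma adjusted p 0.0042). On both LY101-4B arrays PLK4 was the most changed of these genes and STIL the least.

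In the spindle group 11 of 12 genes fell (median -1.03) and NUMA1 did not pass. CKAP2L, a spindle protein needed for chromosome segregation, read 8.61 and 8.71 with vehicle and 7.13 and 7.43 with LY101-4B, the largest fall of the group (2.61-fold, limma adjusted p 0.0019). SPAG5 (astrin), which stabilises the attachment of microtubules to kinetochores, read 9.60 on both vehicle arrays and 8.25 on both LY101-4B arrays. Its SE of 0.083 was the smallest of the 38 genes and near the lowest of all genes (0.083). Limma moderates each SE with the variances of all fitted probe sets, so it does not rest on the values of SPAG5 alone. The 2.54-fold fall of SPAG5 had a limma adjusted p of 0.00083. A probe set listed for both SPAG5 and RSKR did not pass (0.09, limma adjusted p 0.51) and was not counted for SPAG5. KNSTRN, which encodes the astrin partner kinastrin, fell 1.64-fold (limma adjusted p 0.0068), though not without vehicle replicate 2 (0.0510).

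ASPM, which focuses spindle poles, read 9.46 and 9.65 with vehicle and 8.09 and 8.58 with LY101-4B. Both of its replicate pairs were spread, but the groups stayed 0.88 apart (2.32-fold, limma adjusted p 0.0077). The spindle assembly factor NUSAP1 fell 2.31-fold, TACC3, a partner of clathrin and CKAP5 on kinetochore fibres, 2.30-fold, and DLGAP5 (HURP), which stabilises fibres near chromosomes, 2.24-fold, with limma adjusted p between 0.0011 and 0.0021. GTSE1 fell 1.87-fold (limma adjusted p 0.0021). HMMR, a microtubule-binding pole protein, fell 1.77-fold and CKAP2 1.62-fold. Both of these calls were lost without vehicle replicate 2 (limma adjusted p 0.0543 and 0.0595).

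CKAP5, the microtubule polymerase chTOG, and NUMA1, which anchors dynein at poles and cortex, moved least in the spindle group. CKAP5 went from 10.78 and 10.77 to 10.18 and 10.29 (1.45-fold, limma adjusted p 0.012) and was not called without either vehicle array (0.0920 and 0.0850). NUMA1 read 8.56 and 8.49 with vehicle and 8.21 and 8.24 with LY101-4B, so its groups did not overlap. Its difference of -0.30 (95% interval -0.52 to -0.09) missed the threshold (limma adjusted p 0.063). It passed with arrays centred on their medians (0.0378), with the brighter 50% of probe sets (0.0180) and with an intensity trend in the variance (0.0288).

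All 6 cytokinesis genes fell (median -0.91). ANLN, the anillin scaffold of the contractile ring, read 11.50 and 11.51 log2 units with vehicle and 9.38 and 9.66 with LY101-4B. The vehicle arrays were nearly identical and the groups stood 1.84 apart, and the fall was 3.96-fold (-1.99 ± 0.12, SE; limma adjusted p 0.00076), at rank 28 of 18417 genes ordered from the largest fall. ECT2, the exchange factor that activates RhoA at the division plane, read 11.25 and 11.30 with vehicle and 9.72 and 10.11 with LY101-4B (2.57-fold, limma adjusted p 0.0029). RACGAP1, its centralspindlin partner, went from 10.24 and 10.19 to 9.25 and 9.41 (1.84-fold, limma adjusted p 0.0033).

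The other cytokinesis genes fell by similar amounts. CIT, the citron kinase of the midbody, fell 1.89-fold, PRC1, which bundles antiparallel microtubules of the central spindle, 1.86-fold, and CEP55, which recruits the abscission machinery, 1.75-fold. Their limma adjusted p ran from 0.0021 to 0.0055. Each of the 6 genes was called lower without any one of the 4 arrays.

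Of the 6 genes of chromosome structure, anaphase and other mitotic functions, all fell (median -1.19). MKI67, the Ki-67 protein that coats mitotic chromosomes and marks proliferating cells, read 10.36 and 10.42 with vehicle and 8.82 and 8.99 with LY101-4B (2.79-fold, limma adjusted p 0.00096). CDCA3, a mitotic entry factor that promotes loss of WEE1, read 9.57 on both vehicle arrays and 8.11 and 8.20 with LY101-4B (2.66-fold, limma adjusted p 0.00083). TOP2A, the topoisomerase that untangles sister chromatids, went from 11.15 and 11.21 to 9.73 and 9.83 (2.64-fold, limma adjusted p 0.00090). In all 3 genes the groups stood 1.32 to 1.36 log2 units apart.

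Separase and its inhibitor both fell. ESPL1, which encodes separase, read 7.32 and 7.44 with vehicle and 6.42 and 6.38 with LY101-4B (1.97-fold, limma adjusted p 0.0021). PTTG1, which encodes securin, went from 11.55 and 11.60 to 10.85 on both LY101-4B arrays (1.65-fold, limma adjusted p 0.0040). DEPDC1 read 10.07 and 10.31 with vehicle and 9.24 and 9.64 with LY101-4B. Its replicates were spread in both groups, and its 1.69-fold fall had the highest adjusted p of the 35 calls (0.026 by limma). That call did not survive the removal of either vehicle array (0.0502 and 0.119) or of LY101-4B replicate 1 (0.0676), or a fit over all rows of the table (0.0841).

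**Figure D4:**
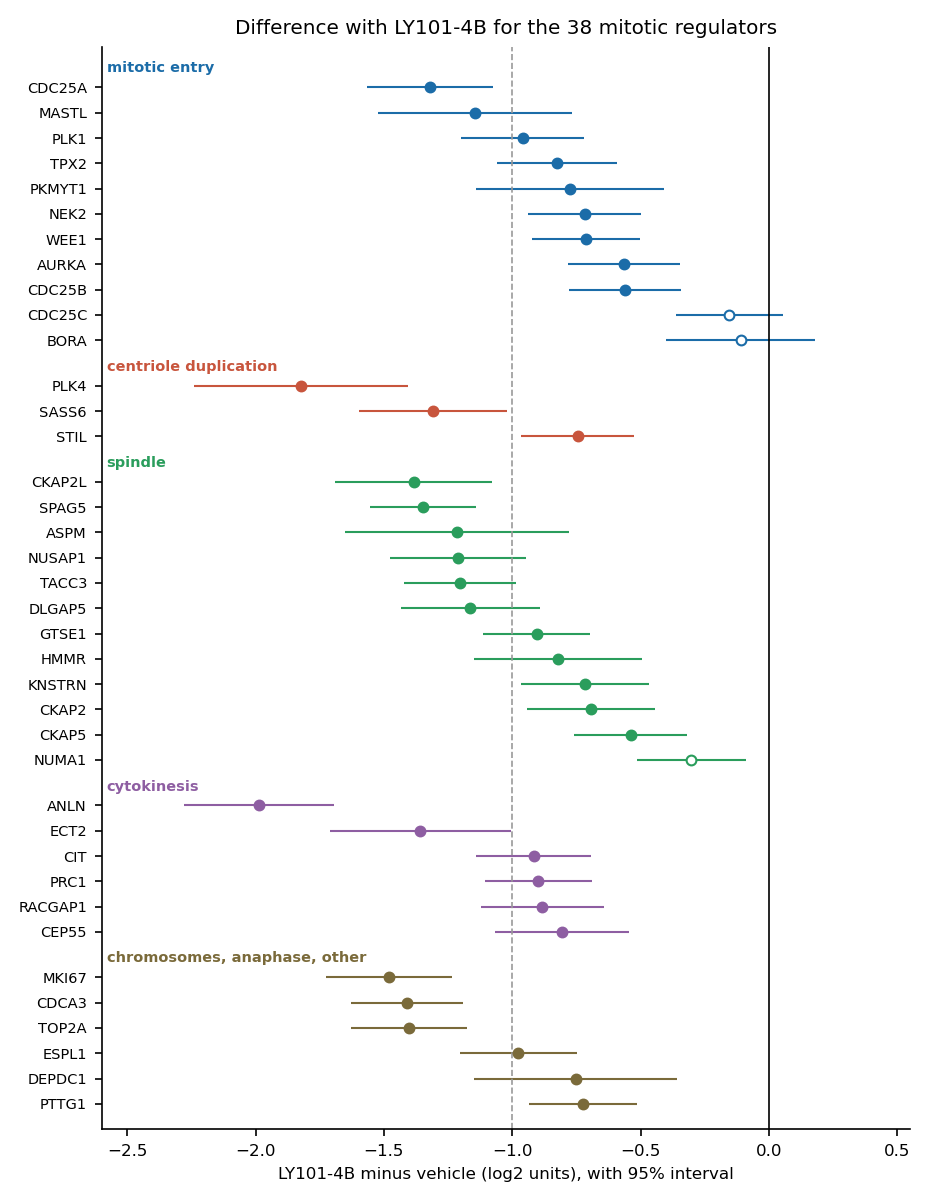
LY101-4B minus vehicle in log2 units (points) with its 95% interval (bars) for the 38 genes by role, where filled points were called lower and open points were not called. The solid line marks no difference and the dashed line a 2-fold fall, and all 38 points lie left of the solid line.

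Relatives of several members were compared side by side, without a test of the differences between them. The polo-like kinase PLK2, a stress-responsive relative, fell 1.47-fold (limma adjusted p 0.0089) and PLK3 rose 1.62-fold (0.0055), next to the falls of PLK1 and PLK4. PLK3 read 6.67 and 6.79 with vehicle and 7.42 and 7.43 with LY101-4B. The PLK2 call was lost without either vehicle array (0.0808 and 0.0714) and the PLK3 call without vehicle replicate 1 (0.0518). Among Aurora kinases, AURKB, of the chromosomal passenger complex, fell 2.64-fold (limma adjusted p 0.00090) beside 1.48-fold for AURKA, and AURKC was at -0.08 (0.70). TACC3 fell while TACC1 (0.11) and TACC2 (-0.03) did not pass. Next to NEK2, NEK6 fell 1.34-fold (limma adjusted p 0.023) and NEK7 (0.10) and NEK9 (-0.02) did not pass. NEK6 was not called when either vehicle array was left out (0.172 and 0.139), without LY101-4B replicate 1 (0.0598) and over all rows (0.0672).

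Other genes of the same processes, and some transcription regulators, were taken from 4 lists of 126 genes, none of them a member, of which 116 were measured. The lists, like the members, were chosen with earlier results of these data known. In each list the share that fell was above the 10.7% of all genes, and the share that rose was below their 8.88%. Of the 116 genes, 56 (48.3%) fell and 5 rose, with a median of -0.36 log2 units. The count of falls was 36 without vehicle replicate 1 and 35 without vehicle replicate 2, and that of rises 0 and 2. Of 30 mitotic entry partners 18 fell and 1 rose (median -0.56). That list also held the transcription regulators FOXM1, MYBL2 and LIN9, which are counted among its falls, and LIN54, which did not pass. The falls were led by CDK1 (3.97-fold), LMNB1, which encodes the lamin B1 of the nuclear envelope (3.07-fold), the checkpoint kinase gene TTK (2.76-fold) and CENPF (2.70-fold), with limma adjusted p from 0.00060 to 0.0025. PLK3 was the gene that rose. Of the 6 genes for subunits of PP2A, the phosphatase opposed by MASTL, 2 fell and 4 did not pass. PPP2R1B fell 1.49-fold (limma adjusted p 0.0092), a call lost when either vehicle array was left out (0.0648 and 0.0805). The B55 subunit gene PPP2R2D was at -0.36 (limma adjusted p 0.036), and its call was lost in each fit that left an array out (0.0534 to 0.242) and over all rows of the table (0.0907). Values of the others were -0.27 for PPP2R2A, -0.21 for PPP2CA, -0.15 for PPP2R1A and 0.03 for PPP2CB.

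Among centriole and centrosome assembly genes 14 of 27 fell and 2 rose (median -0.47). RTTN, a centriole elongation factor, fell 2.52-fold, CCP110, which caps centrioles, 2.18-fold, CEP78 2.12-fold and POC1A 1.95-fold, with limma adjusted p from 0.0024 to 0.013. CEP120 rose 1.77-fold (limma adjusted p 0.011) and CEP57 1.36-fold (0.037). CEP120 was not called without vehicle replicate 1 (0.0611). CEP57 was not called when either vehicle array (0.229 and 0.112) or LY101-4B replicate 2 (0.0858) was left out, over all rows of the table (0.0994) or after median centring (0.0523). CCP110 was not called without vehicle replicate 2 (0.05003) or over all rows (0.0555).

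In the list of the gamma-tubulin ring, the augmin complex and other spindle factors, 14 of 29 fell and 1 rose (median -0.26). The augmin subunit gene HAUS8 fell 2.57-fold, FAM83D 2.43-fold, the gamma-tubulin complex gene TUBGCP4 2.22-fold and HAUS6 2.21-fold, with limma adjusted p from 0.0016 to 0.018. HAUS6 was not called without vehicle replicate 2 (0.0649) or over all rows (0.0678). CLIP1, a microtubule plus-end protein gene, rose 1.56-fold (limma adjusted p 0.012), which was lost without either vehicle array (0.0875 and 0.0504).

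Among cytokinesis and abscission genes 10 of 30 fell and 1 rose (median -0.19). ARHGAP11A, a RhoA regulator, fell 2.83-fold, the passenger complex genes CDCA8 and INCENP 2.25-fold and 2.20-fold, and SHCBP1 2.06-fold, with limma adjusted p from 0.0016 to 0.0021. The other 19 genes did not pass, RHOA (0.00) among them. The gene of the abscission factor CHMP2B rose 1.56-fold (limma adjusted p 0.016), a call lost when either vehicle array was left out (0.0986 and 0.0602) and over all rows (0.0587).

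**Figure D5:**
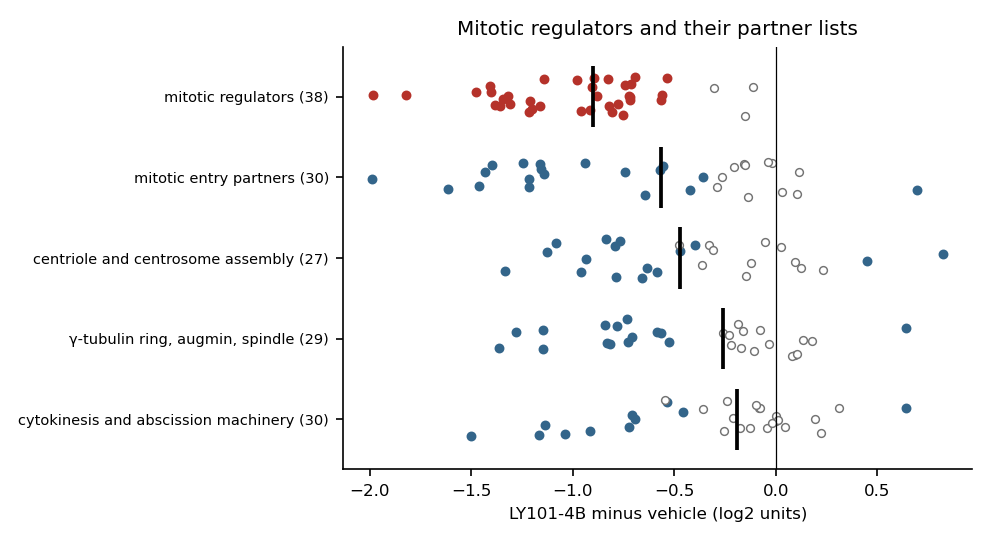
LY101-4B minus vehicle in log2 units for the 38 mitotic regulators (top row) and the measured genes of the 4 partner lists, where filled points were called in either direction, open points were not, and the black bar is the median. Medians are -0.90 for the 38 genes and -0.56, -0.47, -0.26 and -0.19 for the lists.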

How the data were processed

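Total RNA from 4 MiaPaCa2 cultures was hybridised to Human Gene 1.0 ST arrays, per the labels' protocols. The deposited table holds log2 values, made by RMA per the submitters' processing notes; its software version and filters are not stated in the labels. Of 33297 rows, 19460 probe sets had 1 gene symbol in the platform annotation, 1754 several and 12083 none. Symbols were checked against RefSeq (GRCh38.p14), and 0 needed an update. The 21214 probe sets with a symbol were fitted with limma 3.58.1 in R 4.3.3 (lmFit, eBayes, treatment as the only term), with 2 residual and 3.75 prior degrees of freedom, and 2-sided p-values were adjusted by the Benjamini-Hochberg method. No filter on low values was used. The fit was tested on simulated data. Folds are 2 to the absolute log2 difference. The number of arrays, 2 a group, limits the precision. Groups came from the sample titles.

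The members and lists were chosen with earlier results of these data known. Named genes were all 38 members and, per partner list, the 4 called genes with the largest difference. Relatives of members were also named. The partner genes that rose and the PP2A and RHOA genes were named after their values were seen. FOXM1, MYBL2, LIN9 and LIN54 were also named outside the rule for partner lists. Alternatives covered normalization, dim probe sets, rows tested, variance prior, replicate block, probe set choice and each array left out.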

Additional observations from a re-analysis of the deposited data

How the results depend on the processing

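Under the 12 alternatives the 38 members were called lower in 27 to 36 cases and higher in 0, and 27 members were called lower under every one of them. Of the member values under these alternatives, 436 kept direction and side of the threshold, 16 missed it, 3 newly passed (all NUMA1) and 1 turned sign (BORA, which ran from -0.24 to 0.022 as single arrays were left out and was positive without LY101-4B replicate 1). The median difference of the members lay between -0.95 and -0.84. Over all rows of the table, 1271 probe sets were called lower and 1162 higher in place of 2236 and 1930, members called lower were 33, and partner genes called higher were 3 in place of 5. Leaving out 1 array at a time gave 811 to 2467 probe sets called lower and 755 to 1899 higher, 35 to 57 partner genes called lower and 0 to 5 higher. These fits use fewer arrays. With the replicate number as a block, 35 members, 2312 probe sets lower and 2024 higher were called. The numbers are not known to pair cultures, and same-numbered deviations correlated at 0.116 across probe sets. Without detection calls, the values of CDC25A, PKMYT1, PLK4, SASS6 and ESPL1 that lay under the median gene level of 6.50 may be near background, and their folds may be understated.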
